A study of Mus musculus with 30 samples.

Results

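Narrow initiation zones are the stretches of the mouse genome where the list places the switch from leftward to rightward replication forks between close edges. They were chosen by their measured width and arms from a list of 2844 initiation zones: 447 zones (15.7%) were 70 kb wide or less with both arms below 100 kb, and the other 2397 zones served for comparison. The list comes from 1 OK-seq library of wild-type E14TG2a cells, an established line of mouse embryonic stem cells kept in medium with LIF, a GSK3 inhibitor and a MEK inhibitor, labelled with 10 µM EdU for 2 min. It belongs to a study of 30 samples in 17 groups on the inheritance of histones at the replication fork, which also used clones with the MCM2-2A mutation. The other 29 samples were not analysed here. The depth behind the list is unknown, and with 1 library there was no replicate error and no test between samples.

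OK-seq sequences Okazaki fragments, the short pieces from which the lagging strand is assembled. Since they lie on opposite strands for forks that travel in opposite directions, their strand shows the direction of the fork. An initiation zone is a region in which replication starts at 1 or more sites, so that leftward forks prevail on its left and rightward forks on its right. In mammalian cells such zones often lie between transcribed genes, and transcription near them tends to run the same way as the forks that leave them. In the list, each zone has a breakpoint bin of 1 kb, an edge on each side, and an arm, which is the distance from the breakpoint to an edge. Width is the sum of the arms. Since width chose the members, widths and arms are given as a description. Genes, promoters and strands come from RefSeq for GRCm38.p6, the build also called mm10, and took no part in the choice. Intervals are 95% intervals over zones and cover counting error only. They treat zones as independent and were not adjusted for the 72 shares and medians compared, promoter sequences apart.

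The breakpoint bin of some narrow zones held the start of a coding gene. By the starts in the RefSeq promoter table, which can differ from the outer end of the gene, the 8 protein-coding genes nearest to a narrow breakpoint were Mfsd12, Dut, Nek2, Duox1, Depdc5, Slfn14, Lman2 and Ttc39d, all within 0.413 kb of the middle of the bin, a distance that does not rank genes in bins of 1 kb. The 300 bases around the start, 250 before and 50 after, are shown for 5 of them, because they include CpG-rich and CpG-poor promoters. Capitals mark CpG, the cytosine-guanine step at which mammalian DNA is methylated.
Dut: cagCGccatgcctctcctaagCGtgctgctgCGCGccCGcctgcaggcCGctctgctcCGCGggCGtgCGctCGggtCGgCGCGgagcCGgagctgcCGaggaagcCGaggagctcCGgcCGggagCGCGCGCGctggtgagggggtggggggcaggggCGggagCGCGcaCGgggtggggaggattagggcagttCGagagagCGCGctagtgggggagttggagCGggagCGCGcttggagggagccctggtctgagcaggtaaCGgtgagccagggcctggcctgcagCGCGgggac
Nek2: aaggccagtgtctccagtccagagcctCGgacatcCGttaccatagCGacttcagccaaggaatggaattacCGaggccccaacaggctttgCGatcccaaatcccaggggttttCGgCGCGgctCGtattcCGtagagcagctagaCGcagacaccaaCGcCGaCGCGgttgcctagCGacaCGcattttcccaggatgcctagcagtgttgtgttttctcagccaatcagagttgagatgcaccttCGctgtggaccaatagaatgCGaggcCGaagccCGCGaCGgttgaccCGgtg
Depdc5: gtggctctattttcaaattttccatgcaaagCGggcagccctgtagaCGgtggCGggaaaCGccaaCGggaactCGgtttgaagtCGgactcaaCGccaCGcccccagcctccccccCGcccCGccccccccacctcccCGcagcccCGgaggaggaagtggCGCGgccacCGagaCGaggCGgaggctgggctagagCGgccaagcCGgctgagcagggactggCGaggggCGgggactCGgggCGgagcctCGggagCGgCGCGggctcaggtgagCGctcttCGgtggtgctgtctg
Duox1: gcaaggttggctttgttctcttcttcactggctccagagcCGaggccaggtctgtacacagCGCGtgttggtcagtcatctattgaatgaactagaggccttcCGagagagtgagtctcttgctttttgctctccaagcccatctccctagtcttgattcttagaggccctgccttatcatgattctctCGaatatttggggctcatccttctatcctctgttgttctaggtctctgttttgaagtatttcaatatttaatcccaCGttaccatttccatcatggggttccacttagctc
Slfn14: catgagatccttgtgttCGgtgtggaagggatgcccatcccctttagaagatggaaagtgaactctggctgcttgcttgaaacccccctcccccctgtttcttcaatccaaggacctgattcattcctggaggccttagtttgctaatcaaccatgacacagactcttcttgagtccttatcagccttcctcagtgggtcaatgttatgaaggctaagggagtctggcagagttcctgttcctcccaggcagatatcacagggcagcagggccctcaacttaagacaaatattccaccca
The window of Dut, which encodes the enzyme that removes dUTP before it can be built into DNA, lay at chr2:125247265-125247564, plus strand, and held 36 CpG. That of Nek2, a kinase of centrosome separation, lay at chr1:191821223-191821522, plus strand, and held 24 CpG. The window of Depdc5, a subunit of the GATOR1 complex that restrains mTORC1, lay at chr5:32863471-32863770, plus strand, and held 30. By contrast, the window of Duox1, an oxidase that makes hydrogen peroxide, held 6 (chr2:122315422-122315721, plus strand), and that of the Schlafen gene Slfn14 held 1 (chr11:83286677-83286976, minus strand).

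Promoters near narrow breakpoints were rich in CpG, and so were those near the other breakpoints. With starts within 20 kb, 235 of 355 promoters at narrow zones (66.2%, Wilson interval 61.1 to 70.9%) had an observed to expected CpG ratio of at least 0.6. The share was 62.7% (60.4 to 65.0%) of 1734 promoters at other zones and 48.9% of all 20085 promoters. The difference of 3.45 percentage points between narrow and other zones was within counting error (-2.09 to 8.71). With starts within 10 kb it was 8.63 points (0.778 to 15.8), at 68.3% against 59.7%. These intervals count each promoter, and a gene can have several. With the promoter nearest to the breakpoint for each gene, the differences were 4.99 points (-1.10 to 10.7) within 20 kb and 9.91 points (1.23 to 17.7) within 10 kb. The median GC content was 60.7% (59.0 to 62.3%) at narrow zones. A promoter with a start within 1 kb of the breakpoint was rare in both sets. It was found at 13 of 434 narrow zones (3.00%, 1.76 to 5.06%) and 71 of 2318 other zones (3.06%, 2.44 to 3.85%). These counts leave out chromosome 18 and the protein-coding genes without a start in the promoter table, so the shares can be too low.

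Narrow zones ranged from 36 to 70 kb, with a median of 62.0 kb and quartiles of 59.0 and 66.0 kb. Most lay near the limit that chose them: 34 were 50 kb wide or less, 113 were 51 to 60 kb and 300 were 61 to 70 kb. The counts did not fall evenly towards small widths. A width of 61 kb was the most frequent in the whole list, with 64 zones, against 24 at 60 kb and 35 at 62 kb. The left arms of these 64 zones ran from 8 to 49 kb, so the width recurred with breakpoints at many places within the zone. A gene end lay within 20 kb in 57.8% (45.6 to 69.1%) of them, against 58.5% (53.5 to 63.3%) of narrow zones of any other width, and the median distance to the nearest breakpoint was 252.5 kb against 258 kb. Why the width recurs was not tested.

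**Figure D1:**
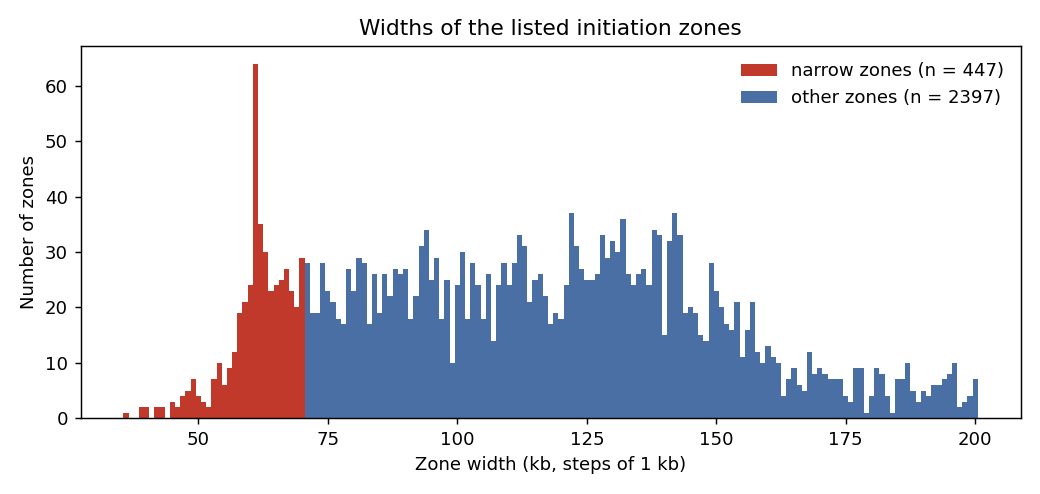
Number of initiation zones (y axis) at each width in kb (x axis, steps of 1 kb), narrow zones in red and other zones in blue. The peak at 61 kb holds 64 zones, and few zones are narrower than 50 kb.

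With the interval cut into 3 equal parts, the breakpoint lay in the central one in 288 narrow zones (64.4%) and in 67.0% of other zones. The left arm had a median of 31.0 kb (range 3.00 to 62.0 kb) and the right arm of 30.0 kb (1.00 to 64.0 kb). The left arm was the longer in 234 zones, the right arm in 200, and 13 had equal arms. Among narrow zones, 23 shared both edges with another listed breakpoint, so the 447 entries stand for 435 intervals, which cover 27.2 Mb.

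The 10 narrowest zones (ties taken in genome order) lay in surroundings of every kind. The narrowest, 36 kb wide, stood on chromosome 15 from 60534001 to 60571000, in a stretch of 802.4 kb without protein-coding genes. Such stretches are called gene-free below, although genes of other kinds can lie in them. A zone of 43 kb on chromosome 3 (71576001 to 71620000) lay in a stretch of 2859.8 kb between Otol1 and Sis. Neither touched a protein-coding gene. The other 8 had a coding gene within 100 kb, and 5 of these turned in gaps of 9.97 to 46.1 kb. On chromosome 17, a zone of 43 kb (66079001 to 66123000) turned in a gap of 9.97 kb between Ndufv2, a core subunit of respiratory complex I, and Washc1, of the endosomal WASH complex, which point away from each other. On chromosome 6, a zone of 40 kb (83448001 to 83489000) turned 5.29 kb from Tet3, which oxidises methylated cytosine, and 17.7 kb from Dguok, a mitochondrial nucleoside kinase. Ndufaf1, an assembly factor of complex I, held the breakpoint of a zone of 39 kb on chromosome 2 (119640001 to 119680000), with the spindle protein gene Nusap1 ending 6.34 kb away.

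In the rest of these 10, the breakpoint lay at different distances from the nearest gene. Osbpl11, of the oxysterol-binding family, began 3.26 kb from the breakpoint of a zone of 40 kb on chromosome 16 (33146001 to 33187000), with Lmln 38.8 kb away on the other side. Atp8b2, a phospholipid flippase gene, lay 3.16 kb and Hax1 28.9 kb from that of a zone of 45 kb on chromosome 3 (89940001 to 89986000). Sec11a, of the signal peptidase, and Zfp592 flanked the breakpoint of a zone of 42 kb on chromosome 7 (80951001 to 80994000) at 15.0 and 31.2 kb. Hivep1, a zinc finger factor, was the nearest gene to the breakpoint of a zone of 42 kb on chromosome 13 (42010001 to 42053000), at 36.4 kb. In the zone of 39 kb on chromosome 4 (42497001 to 42537000) the breakpoint lay inside Fam205a2, with an arm of 34 kb on the left and 5 kb on the right.

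The first 3 zones in genome order at the limit of 70 kb lay at Mndal on chromosome 1 (173854001 to 173925000), at Cubn on chromosome 2 (13245001 to 13316000) and at Etl4 on chromosome 2 (20140001 to 20211000), each with the breakpoint inside the gene. The first 3 at 71 kb had it between genes: Mgat4a and Cracdl on chromosome 1 (37501001 to 37573000), Lemd1 and Klhdc8a on chromosome 1 (132236001 to 132308000), and Macrod2 and Kif16b on chromosome 2 (142559001 to 142631000). There were 29 zones at 70 kb and 28 at 71 kb.

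Within 10 kb of the breakpoint the share of narrow zones with a gene end differed from that of other zones by less than counting error, but more of them had no gene end within 100 kb. A protein-coding gene end lay within 10 kb in 189 of 447 narrow zones (42.3%, 37.8 to 46.9%) and in 42.5% (40.5 to 44.5%) of other zones, a difference of -0.230 points (-5.14 to 4.80). Within 20 kb the shares were 58.4% and 63.6%, a difference of -5.19 points (-10.2 to -0.306). Within 50 kb they were 74.0% and 85.1% (-11.1 points, -15.6 to -6.98), and within 100 kb they were 77.0% and 89.3% (-12.4 points, -16.6 to -8.47). The difference at 20 kb depends on the window and on the point measured from: from the point midway between the edges it was 0.126 points (-4.85 to 4.93). The median distance to the nearest gene end was 13.4 kb (11.1 to 16.6) in narrow zones and differed from that of other zones by 0.421 kb (-2.07 to 3.73). The upper quartiles were 62.5 kb and 28.7 kb.

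**Figure D2:**
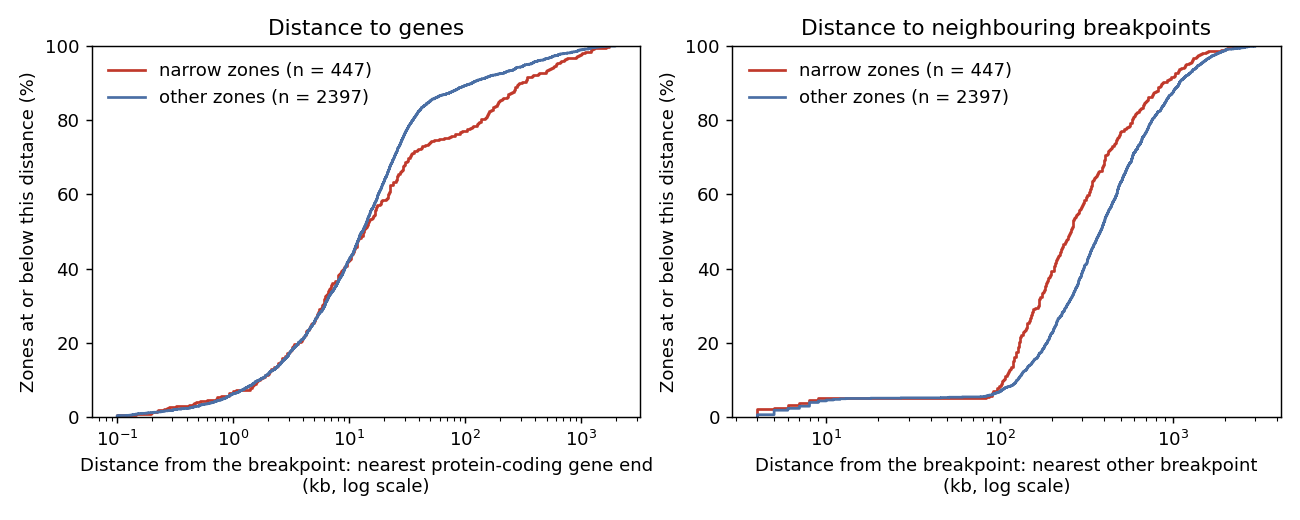
Share of zones (y axis, %) whose breakpoint lies at or below a given distance in kb (x axis, log scale; distances under 0.1 kb drawn at 0.1) from the nearest protein-coding gene end (left) and from the nearest other breakpoint (right), for narrow zones in red and other zones in blue. The curves for genes run together up to 10 kb and part between 20 and 100 kb, where narrow zones reach 77.0% and other zones 89.3%.

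The share of breakpoints in gene bodies differed by less than counting error. The breakpoint lay in a gene body in 133 narrow zones (29.8%, 25.7 to 34.2%) and 697 other zones (29.1%, 27.3 to 30.9%), a difference of 0.676 points (-3.78 to 5.42). From the point midway between the edges, the share was 23.7% in narrow and 36.8% in other zones (-13.1 points, -17.3 to -8.51). The width rule enters this second comparison, because the midway point can lie farther from the breakpoint in wider zones. Gene bodies were sparser at the breakpoint than beside it in both sets, as described below. The longest gene that held a breakpoint had a median length of 34.7 kb (25.3 to 59.9) in narrow and 34.2 kb (31.1 to 39.0) in other zones. The 3 longest genes with a narrow breakpoint were Ptprd, a receptor phosphatase gene of 2270.5 kb on chromosome 4, Lsamp, a neuronal adhesion gene of 2197.4 kb on chromosome 16, and Lrp1b, an LDL receptor family gene of 2058.3 kb on chromosome 2. In Lsamp the breakpoint lay 1275.2 kb from the start, 58.0% of the way along the gene, in a zone from 41242001 to 41304000. The narrow zones of Ptprd and Lrp1b, at 77959001 to 78027000 and 41488001 to 41559000, also lay wholly inside their gene.

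Where the breakpoint fell between genes, the gene-free stretch around it was longer in narrow zones. Its median was 107.9 kb (79.9 to 138.4) in 314 narrow zones and 74.4 kb (69.0 to 79.4) in 1695 other zones, a difference of 33.5 kb (5.02 to 64.5). Stretches under 50 kb were found in 37.3% of narrow and 37.9% of other zones, a difference of -0.615 points (-6.28 to 5.31). Stretches over 500 kb were found in 28.3% and 17.1%, a difference of 11.2 points (6.18 to 16.7). With zones that share both edges counted once, the difference in medians was 27.5 kb (-3.36 to 56.0). When genes of all kinds bounded the stretch, the medians were 42.3 and 38.9 kb, a difference of 3.45 kb (-5.05 to 14.9). The widest stretches with a narrow zone were 4511.1 kb between Celf4 and Pik3c3 on chromosome 18, where the breakpoint lay 7.11 kb from Pik3c3, a lipid kinase gene of autophagy. Next came 4277.7 kb between Cntnap5b and Cdh20 on chromosome 1 and 3988.9 kb between Tenm3 and Aga on chromosome 8. The number of genes with an end within 250 kb had a median of 5.00 in both sets.

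By the distance between breakpoints, narrow zones had nearer neighbours than other zones. The nearest other breakpoint lay at a median of 258 kb (227 to 281) from a narrow breakpoint and 381 kb (363 to 398) from another one, a difference of -123 kb (-158.4 to -93.8). It lay within 200 kb in 176 of 447 narrow zones (39.4%) and in 542 of 2397 other zones (22.6%, 21.0 to 24.3%), a difference of 16.8 points. It lay within 100 kb in 38 narrow (8.50%) and 166 other zones (6.93%), a difference of 1.58 points (-0.918 to 4.68). The nearest breakpoint can belong to the same interval, because 23 narrow and 99 other entries shared both edges with another listed breakpoint. The width rule enters these values, because the distance between the breakpoints of separate zones spans an arm of each. Median arms were 31.0 and 30.0 kb in narrow zones and 57.0 kb on each side in other zones. How much of the differences follows from this was not tested. The gap between a zone and the next one had a median of 331 kb (272 to 385) after narrow zones. It was 514 kb (471 to 546) after other zones, a difference of -183 kb (-250.1 to -114). Edges may be placed with regard to neighbouring zones, and no source used here gives how they were called. Whether spacing set the widths was not tested.

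Of the 447, 344 (77.0%) had a gene end within 100 kb and 103 (23.0%) had none. The nearest breakpoint lay at a median of 223.5 kb (199 to 248) in the 344 and 580 kb (408 to 669) in the 103. In other zones the medians were 363 kb (347 to 381) with such a gene end and 588.5 kb (519 to 675) without it. The intervals of narrow and other zones overlapped without such a gene end and did not overlap with one. The width rule enters these distances too, because they span the arms. Zones without a gene end within 100 kb need not lie outside genes: 20 of the 103 narrow and 58 of the 256 other ones had their breakpoint inside a gene body. Among the 192 narrow and 1461 other zones whose nearest breakpoint was over 300 kb away, the excess of zones without a gene end within 100 kb was 24.4 points (17.6 to 31.6).

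A narrow zone was followed by another narrow zone more often than a wider zone was. The next zone was narrow after 95 of 446 narrow zones (21.3%, 17.8 to 25.3%) and after 350 of 2379 other zones (14.7%, 13.3 to 16.2%), a difference of 6.59 points (2.75 to 10.8). With zones that share both edges counted once it was 4.10 points (0.356 to 8.30). There were 69 runs of 2 or more narrow entries, holding 164 entries, and 283 stood alone between others. Over distinct intervals there were 64 runs holding 147 intervals, and 288 stood alone. The runs below were named after their values were seen. The longest held 5 zones on chromosome 11, from 78041001 to 79358000, a gene-dense stretch with Rpl23a, the elongation factor gene Supt6, the nitric oxide synthase gene Nos2 and Nf1, which restrains Ras. Runs of 4 lay in unlike places. On chromosome 4, from 133082001 to 133674000, 4 zones stood among 19 genes from Wasf2 to Pigv, whereas on chromosome 1, from 25724001 to 30104000, 4 entries over 3 intervals spanned 4380 kb with 3 genes, among them the adhesion receptor gene Adgrb3.

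Every autosome held narrow zones. Their share of all zones ran from 8.40% (4.63 to 14.8%) on chromosome 15, with 10 of 119 zones, to 19.8% (13.6 to 28.0%) on chromosome 17, with 23 of 116. Chromosome 9 had 9.68% (5.95 to 15.4%). The intervals of the highest and the lowest chromosome overlapped. Per Mb, chromosome 11 held the most narrow zones, with 0.261 (exact Poisson interval 0.177 to 0.370), and chromosome 15 the fewest, with 0.0992 (0.0476 to 0.182).

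Across width classes, a gene end within 100 kb was found for 79.4% (63.2 to 89.7%) of the 34 zones up to 50 kb, 73.5% (64.6 to 80.7%) at 51 to 60 kb, 78.0% at 61 to 70 kb, 82.1% at 71 to 80 kb, 85.5% at 81 to 100 kb and 93.0% (91.1 to 94.6%) above 120 and up to 150 kb. The median distance to the nearest breakpoint was 260 kb (224 to 295) at 61 to 70 kb, 308 kb (284 to 337) at 71 to 80 kb, 307 kb at 81 to 100 kb and 520 kb above 150 kb. Width enters this median, because distances between breakpoints span the arms. In both measures, gene ends within 100 kb and distance to the nearest breakpoint, the intervals of the classes on either side of 70 kb overlapped. The share of breakpoints in gene bodies lay between 24.6% and 34.1% in all classes, without an order by width.

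**Figure D3:**
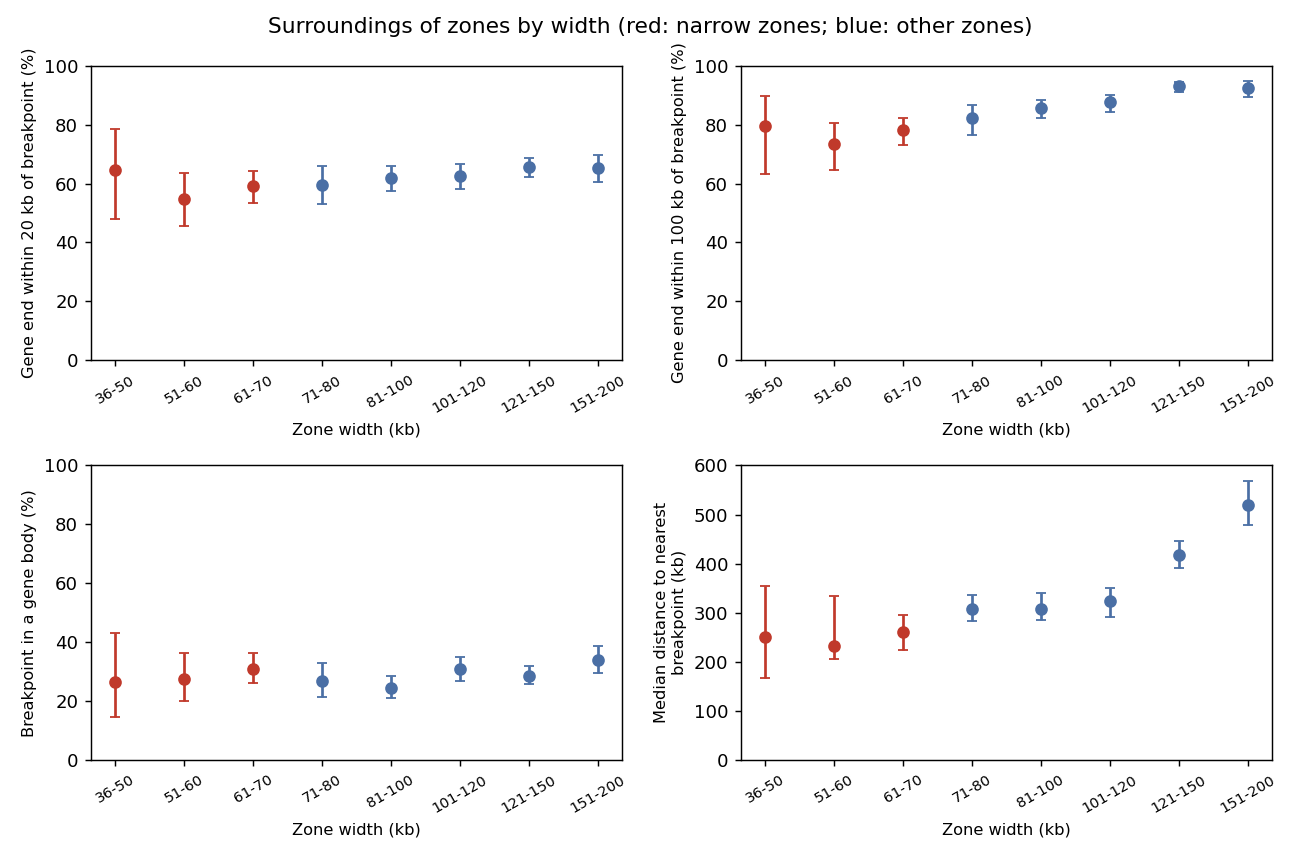
Surroundings of zones in 8 width classes (x axes, kb): share with a protein-coding gene end within 20 kb and within 100 kb of the breakpoint, share with the breakpoint in a gene body (y axes, %), and median distance to the nearest breakpoint (y axis, kb). Points are values with 95% intervals, narrow zones red and other zones blue; the share within 100 kb is 73.5% at 51 to 60 kb and 93.0% between 120 and 150 kb.

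Gene bodies were sparser at the breakpoint than beside it in both sets, while the strands of the surrounding genes differed. This profile covers the 434 narrow and 2318 other zones outside chromosome 18, whose strands were not analysed here, and 80.1% of protein-coding genes had a strand. At the breakpoint, 29.7% of narrow and 29.2% of other zones had a gene body, and 58.8% and 59.5% had one at 50 kb to the right. The strands differed more. At 30 kb to the right, 26.0% of narrow zones had a rightward gene and 21.2% a leftward one, against 28.1% and 14.6% of other zones. At 50 kb to the right, narrow zones were even, with 25.3% rightward and 24.9% leftward, while other zones had 30.6% and 18.3%. At 100 kb to the right the order was the opposite in narrow zones, with 17.7% rightward and 23.5% leftward, and still the same in other zones, with 25.5% and 20.5%. At 100 kb on the left, 23.3% of narrow zones had a rightward and 21.0% a leftward gene, against 20.3% and 25.5% of other zones.

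**Figure D4:**
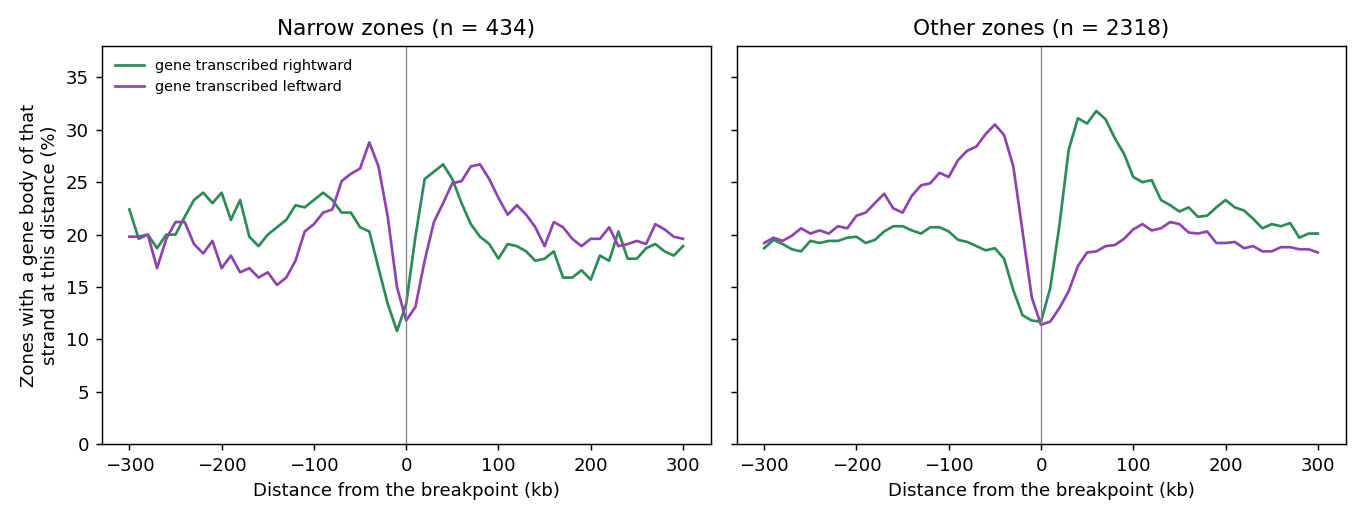
Share of zones (y axis, %) with a protein-coding gene body transcribed rightward (green) or leftward (purple) at each distance from the breakpoint (x axis, kb, steps of 10 kb), narrow zones left and other zones right. In narrow zones the strands cross between 50 and 60 kb on the right and between 70 and 80 kb on the left, while in other zones they stay apart at 100 kb.

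Pooled over both sides, the excess of genes transcribed away from the breakpoint reached less far at narrow zones. At 20 kb, 201 of 333 gene-covered positions of narrow zones (60.4%, 55.0 to 65.5%) were transcribed away from the breakpoint, against 62.3% (59.8 to 64.7%) at other zones, a difference of -1.90 points (-7.76 to 3.77). At 50 kb the shares were 53.1% (48.3 to 57.8%) and 62.5% (60.5 to 64.5%), a difference of -9.37 points (-14.6 to -4.22). At 80 kb they were 182 of 397 positions (45.8%, 41.0 to 50.8%) and 1306 of 2177, or -14.1 points (-19.4 to -8.81). The difference was -10.4 points (-15.9 to -4.89) at 100 kb, -4.79 points (-10.8 to 1.26) at 150 kb and -11.4 points (-17.1 to -5.51) at 200 kb, where narrow zones stood at 42.3% (37.1 to 47.8%). At 250 kb the difference was -2.39 points (-8.19 to 3.41). A fixed distance does not lie at the same place in zones of unlike width. The upper quartiles of the arms of narrow zones were 39.0 and 37.0 kb, so at 50 kb most positions lay outside the zone. In other zones the median arm was 57.0 kb on each side, so many lay inside it. Both sides of a zone are counted and neighbouring zones can share genes, which the intervals do not allow for.

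The size of this difference moved with spacing and with the width limit, and their part in it was not tested. Among zones whose nearest breakpoint was over 300 kb away, the difference at 50 kb was -8.01 points (-16.5 to 0.245), at 100 kb it was -4.65 points (-13.9 to 4.39) and at 200 kb -13.7 points (-22.8 to -4.10). The narrow zones of this subset stood above 50% at 80 kb (51.5%) and 100 kb (54.1%) and below it at 200 kb (40.4%). At 30 kb in the same zones the difference was -11.4 points (-20.2 to -2.81). With a limit of 60 kb in place of 70 kb, the difference at 50 kb was -3.67 points (-12.8 to 5.02). At the edges themselves, wherever they lay, 58.2% (53.3 to 62.9%) of the genes at narrow zones and 65.6% (63.6 to 67.6%) of those at other zones were transcribed away from the breakpoint.

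**Figure D5:**
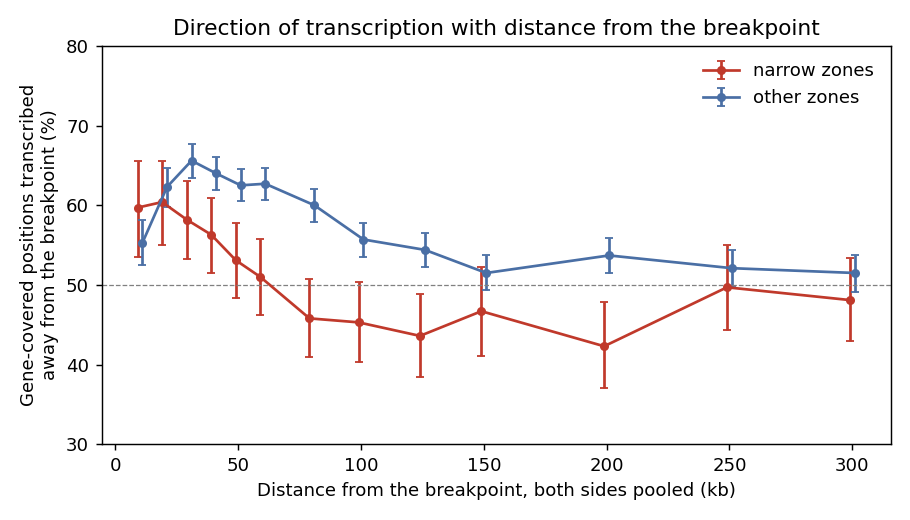
Share of gene-covered positions transcribed away from the breakpoint (y axis, %; the axis starts at 30) by distance (x axis, kb, both sides pooled), with Wilson 95% intervals, for narrow (red) and other zones (blue); the dashed line marks 50%. Narrow zones lie below the line at 80 to 200 kb (45.8% at 80 kb, 42.3% at 200 kb), where other zones lie above it; narrow zones with the nearest breakpoint over 300 kb away, not drawn, stood at 51.5% at 80 kb.

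Between the genes next to the breakpoint, the difference was within counting error. Of 219 narrow zones with an intergenic breakpoint and known strands, 72 (32.9%, 27.0 to 39.3%) lay between genes pointing away from each other, 122 (55.7%) between genes pointing the same way and 25 (11.4%) between genes pointing towards each other. Among 1109 other zones the shares were 36.7%, 51.4% and 11.9%, and the difference for divergent pairs was -3.82 points (-10.4 to 3.22). A limit of 60 kb turned it to 4.76 points (-6.36 to 16.8), and with genes of all kinds it was -9.35 points (-17.5 to 0.976). The start of a gene was nearer than a stop in 58.1% of narrow and 59.3% of other zones.

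Edges lay in gene bodies at 486 of 894 edges of narrow zones (54.4%) and at 58.0% of other edges. The difference of -3.67 points was within counting error with the zone as the unit (-7.75 to 0.412), and not when the edges of a zone were counted as independent (-7.23 to -0.138). In 133 narrow zones (29.8%) neither edge lay in a gene, against 19.7% of other zones, a difference of 10.0 points (5.65 to 14.7). Both edges lay in genes in 38.5% of narrow and 35.8% of other zones, a difference of 2.68 points (-2.12 to 7.65). By side, left edges lay in genes in 51.5% of narrow and 58.2% of other zones (-6.79 points, -11.8 to -1.77) and right edges in 57.3% and 57.8% (-0.552 points, -5.58 to 4.37). Whether the sides differ from each other was not tested. The width rule enters all these edge shares, because it sets how far the edges lie from the breakpoint. The median arms were 31.0 and 30.0 kb in narrow zones and 57.0 kb on each side in other zones. Gene cover changes with this distance: in other zones it was 52.3% at 30 kb and 60.5% at 60 kb to the right. How much of the differences follows from it was not tested.

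Among the 20558 protein-coding genes kept, 668 (3.25%) had an end in a narrow zone, and 10.0% of the genes in zones of any width were in narrow ones. The 12 gene lists are described beside these values. Cytosolic ribosomal protein genes had the highest share, with 8 of 80 (10.0%) in a narrow zone. They were also frequent in zones of any width, with 46 of 80 (57.5%) against 32.4% of all genes, and 38 were in other zones only. Of the 8, Rpl6, Rpl23a and Rpl23 lay nearest to a breakpoint, at 2.26, 3.92 and 5.06 kb. The median distance of the 80 genes to a narrow breakpoint was 785.1 kb, against 1540.8 kb for all protein-coding genes, and to any breakpoint 38.7 kb against 129.1 kb. The genes of mitochondrial ribosomal proteins had 3 of 78 (3.85%), a count too small to set apart from the share of all genes. These were Mrps27, Mrps18b and Mrpl21 at 7.94, 19.1 and 27.7 kb.

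The lists of pluripotency, replication and chaperone genes had 1 or 2 members in narrow zones, counts too small to set apart from the share of all genes. In zones of any width their shares were 59.1%, 47.8% and 61.9%, and that of cell cycle genes was 52.8%, against 32.4% of all genes. The list of 22 pluripotency genes had 1 (4.55%), the naive-state factor Tfcp2l1, with an end 8.42 kb from the breakpoint of a zone on chromosome 1 (118584001 to 118646000), while 12 others had an end in wider zones. Of 46 DNA replication genes, 2 (4.35%) were in narrow zones: Mcm4, a subunit of the MCM helicase, at 5.40 kb from the breakpoint (chromosome 16, 15577001 to 15643000), and Prim1, the catalytic subunit of primase, at 12.5 kb (chromosome 10, 128014001 to 128076000). Of 21 histone chaperone genes, Supt6 was the only such gene (4.76%), at 19.2 kb. Of 36 cell cycle genes, 0 had an end in a narrow zone and 19 in a wider zone, a count too small to set apart from the share of all genes.

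Among lineage factors, the endoderm factor Gata6 and the mesoderm factor Tbx6 had an end in a narrow zone, at 3.01 and 21.0 kb from the breakpoint. No Hox gene (of 39) and no olfactory receptor gene (of 1099) had one. The vomeronasal receptors had 2 of 349, Vmn1r242 and Vmn2r90, and the core and linker histone list had 1 of 82, H3f3c, in the zone of Ndufaf1 described above. These families were also scarcer than all genes (32.4%) in zones of any width. There the shares were 20.5% of Hox, 4.46% of olfactory receptor, 2.87% of vomeronasal receptor and 15.9% of histone genes. With 39 Hox genes, a count of 0 cannot be set apart from the share of all genes. Zfp zinc finger genes had 14 of 386 (3.63%) in a narrow zone, with Zfp945, Zfp771 and Zfp638 nearest to a breakpoint, at 0.197 to 2.57 kb. Genes of clustered families share zones, so their members are not independent.

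Non-coding genes showed small differences. A long non-coding RNA gene had an end within 20 kb of 134 narrow breakpoints (30.0%, 25.9 to 34.4%) and of 35.8% (33.9 to 37.8%) of other ones, a difference of -5.86 points (-10.4 to -1.06). A tRNA gene did so at 8 narrow zones (1.79%, 0.910 to 3.49%) and 13 other zones (0.542%, 0.317 to 0.926%), a difference of 1.25 points (0.287 to 2.96) that rests on few zones. These 8 zones lay on chromosomes 1, 4, 7, 8, 11 and 16, with 3 of them on chromosome 11. A miRNA gene was as near to 18 of 447 narrow zones (4.03%) and to 67 of 2397 other zones, a difference of 1.23 points (-0.409 to 3.56). Among the 18, named after their values were seen, were the zones of the clusters Mir182, Mir96 and Mir183 on chromosome 6 and Mir144, Mir451a and Mir451b on chromosome 11.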

How the data were processed

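The data are 1 list of initiation zones from a wild-type OK-seq library. Per the submitters' processing notes the build was mm10 and the tools include Picard 2.8.2, SAMtools, Trim Galore 0.4.2, BWA 0.7.13, Bowtie and bcl2fastq, with no roles or order stated. The deposited columns hold distances in bp and bin positions, per the file headers, without counts or signal. No source used here gives how zones and edges were called.

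Zones run from the left edge bin to the right edge bin (1-based); the span exceeds the listed width by 1 kb. Distances were measured from the middle of the breakpoint bin. RefSeq genes of GRCm38.p6 on chromosomes 1 to 19 were used (20558 protein-coding genes, 46709 of all kinds); 333 on scaffolds were left out. Strand came from the promoter table. Shares carry Wilson intervals, differences Newcombe intervals and medians order-statistic intervals, whose differences combine both intervals by squares. No p-value was computed. Calculations used Python 3.11.15 with scipy 1.17.1, checked on simulated data.

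The members, gene lists and measures were chosen with earlier results of these data known. Named genes followed a rule: up to 2 nearest to each of the 10 narrowest zones and up to 3 nearest per list. Also named were the 8 promoter-table starts nearest to a narrow breakpoint outside chromosome 18. The 3 longest genes with a narrow breakpoint and the neighbours of the 3 widest gene-free stretches were named too. The profile of strands, the split by 100 kb the limit of 300 kb to the nearest breakpoint, the zone as the unit for edges and 1 promoter per gene were added after the data were seen. Some items that the rule names are not reported here.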

Additional observations from a re-analysis of the deposited data

How the results depend on the processing

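Values are narrow minus other zones. The gene-free stretch differed by 33.5 kb as reported, by 72.4 kb with a limit of 60 kb, by 3.45 kb with genes of all kinds and by 146.5 kb with the nearest breakpoint over 300 kb away. Edges in gene bodies moved from -3.67 points to -8.58 with a limit of 60 kb and to -9.03 with the nearest breakpoint over 300 kb away. Divergent neighbours turned from -3.82 to 4.76 points with a limit of 60 kb, both within counting error. Breakpoints in gene bodies moved from 0.676 to -13.1 points when the point midway between the edges took the breakpoint's place. Gene ends within 20 kb moved from -5.19 points to 0.126 with that point, to -0.230 with a window of 10 kb, to -11.1 with a window of 50 kb and to -15.7 with the nearest breakpoint over 300 kb away. Its interval also reached 0 with a limit of 60 kb, with other zones below the arm limit only and with shared edges counted once. The interval of the gene-free stretch reached 0 with a limit of 60 kb, all gene kinds, shared edges counted once and the midway point (9.22 kb), and that of edges with shared edges counted once, all gene kinds (-1.81) and the zone as the unit. Promoters rich in CpG moved from 3.45 to 8.63 points within 10 kb, and to 9.91 there with 1 promoter per gene, where the intervals left 0. Transcription away from the breakpoint at 50 kb moved from -9.37 to -3.67 points with a limit of 60 kb, and zones without a gene end within 100 kb from 12.4 to 24.4 points with the nearest breakpoint over 300 kb away. The cause was not tested. The other 50 settings of these differences stayed within the reported interval. Counts of list genes changed by over 1.5 times only for Zfp genes, 7 in place of 14 with ends within 20 kb of the breakpoint. No paired analysis was possible because 1 library was analysed; for the same reason no replicate could be left out. The depth of the library is unknown.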
